A study of Mus musculus with 12 samples.

Results

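The 34 genes described here encode enzymes, carriers and regulators of fatty acid oxidation and of ketone body metabolism, together with the PPAR receptors and genes known to respond to them. They were taken as a list of gene symbols, fixed by name but chosen with earlier results of these data known. Each of the 34 matched 1 row among the 55471 genes counted. RNA was sequenced from colonic crypts of C57BL/6J mice in 4 groups of 3 libraries each, labelled as biological replicates. CBPWTp53-floxed mice carried wild-type CBP (gene symbol *Crebbp*) and floxed *Trp53* alleles without Cre, and CBPAAp53-floxed mice carried the same floxed alleles with CBP whose IKKα target serines were replaced by alanines in every cell of the body. In CBPWTp53ΔIEC and CBPAAp53ΔIEC mice, a Cre transgene driven by the villin promoter removed *Trp53* from intestinal epithelial cells only, so that the floxed alleles were shared by all 4 groups. The study's methods name female mice of 8 weeks as the default, and gave no other age or sex for the sequenced mice.

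Long-chain fatty acids are activated to acyl-CoA in the cytosol and carried into mitochondria by the carnitine shuttle. In mitochondria, acyl-CoA is shortened by a repeating spiral of dehydrogenation, hydration, a further dehydrogenation and thiolysis. Electrons from the first step pass through the electron transfer flavoproteins to the respiratory chain. Colonocytes are known for burning short-chain fatty acids, above all butyrate made by bacteria, and the liver and the colonic epithelium can turn acetyl-CoA into ketone bodies. PPARα, PPARδ and PPARγ are nuclear receptors that bind fatty acids and switch on many of these enzymes.

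Total counts per library lay between 11177430 and 18029125, and 14610 genes passed the filter on low counts. *Trp53* was at 23.3 to 33.5 TPM, a level scaled by transcript length and library size, in the 6 floxed libraries and at 3.26 to 6.13 TPM in the 6 ΔIEC libraries, so every library matched its p53 label. 3 libraries stood apart in genes of another gut region. A list of 25 small intestine enterocyte genes summed to 7793 TPM in CBPWTp53ΔIEC replicate 1, to 4821 TPM in CBPAAp53ΔIEC replicate 3 and to 3642 TPM in CBPAAp53-floxed replicate 2, against 980.2 to 2193 TPM in the other 9. A list of 14 Paneth cell genes summed to 24113, 6168 and 1468 TPM in the same 3 libraries. It reached 3144 TPM in CBPAAp53ΔIEC replicate 1 and lay at 98.3 to 343.8 TPM in the other 8. *Lyz1*, a lysozyme of Paneth cells that normal mouse colon lacks, ranged from 0 to 2281 TPM. Counts of called genes are given with and without these 3 libraries. Of the adipocyte markers, *Adipoq* and *Fabp4* were at 0 reads in all 12 libraries and *Plin1* was at no more than 0.0420 TPM. The whole adipocyte list of 12 genes, which holds genes that epithelium also uses, summed to 152 to 281.7 TPM, with 7 of the 12 at no more than 10 reads. The stromal and endothelial lists summed to 6.85 to 10.5 TPM and to 6.92 to 9.03 TPM per library.

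33 of the 34 genes passed the filter, the exception being *Cd36*, a fatty acid translocase, at 0 to 0.272 TPM (at most 5 reads). Most were abundant: the median of their mean levels was 75.6 TPM, against 12.3 TPM over all genes tested, and 31 of the 33 lay above that median. On this length-corrected scale, the highest means were those of *Acads*, *Acadvl*, *Acaa2* and *Hadh*. *Acads*, the dehydrogenase for the shortest chains, averaged 397 TPM over 12 libraries (333 to 477). *Acadvl*, for very long chains, averaged 303 TPM (250.1 to 387). *Acaa2*, the thiolase of the last step, averaged 216 TPM (169 to 286) and *Hadh*, the short-chain hydroxyacyl-CoA dehydrogenase, 169 TPM (140.4 to 198). Over the 12 libraries, the ranges of *Acads* and *Acadvl* overlapped, and so did those of *Acadvl* and *Acaa2* and those of *Acaa2* and *Hadh*. At the lower end were *Acsl1*, a long-chain acyl-CoA synthetase (8.34 TPM, 6.62 to 10.7), and *Angptl4*, a secreted inhibitor of lipoprotein lipase and a classic PPAR target (4.12 TPM, 1.96 to 9.99).

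How far the levels differed between libraries varied from gene to gene. For 23 of the 33 genes the mean level was above 50 TPM. The standard deviation over the 12 libraries was smallest for *Etfa*, the alpha chain of the electron transfer flavoprotein, at 6.18% of its mean, and largest for *Angptl4* at 60.7%. *Acaa1b*, a peroxisomal thiolase, and *Ppara* followed at 33.6% and 33.95%. The 2 chains of the trifunctional protein, *Hadha* and *Hadhb*, and the carnitine acylcarnitine translocase *Slc25a20* lay below their own means in the same 4 of the 6 ΔIEC libraries, as the plot of centred levels shows.

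**Figure D1:**
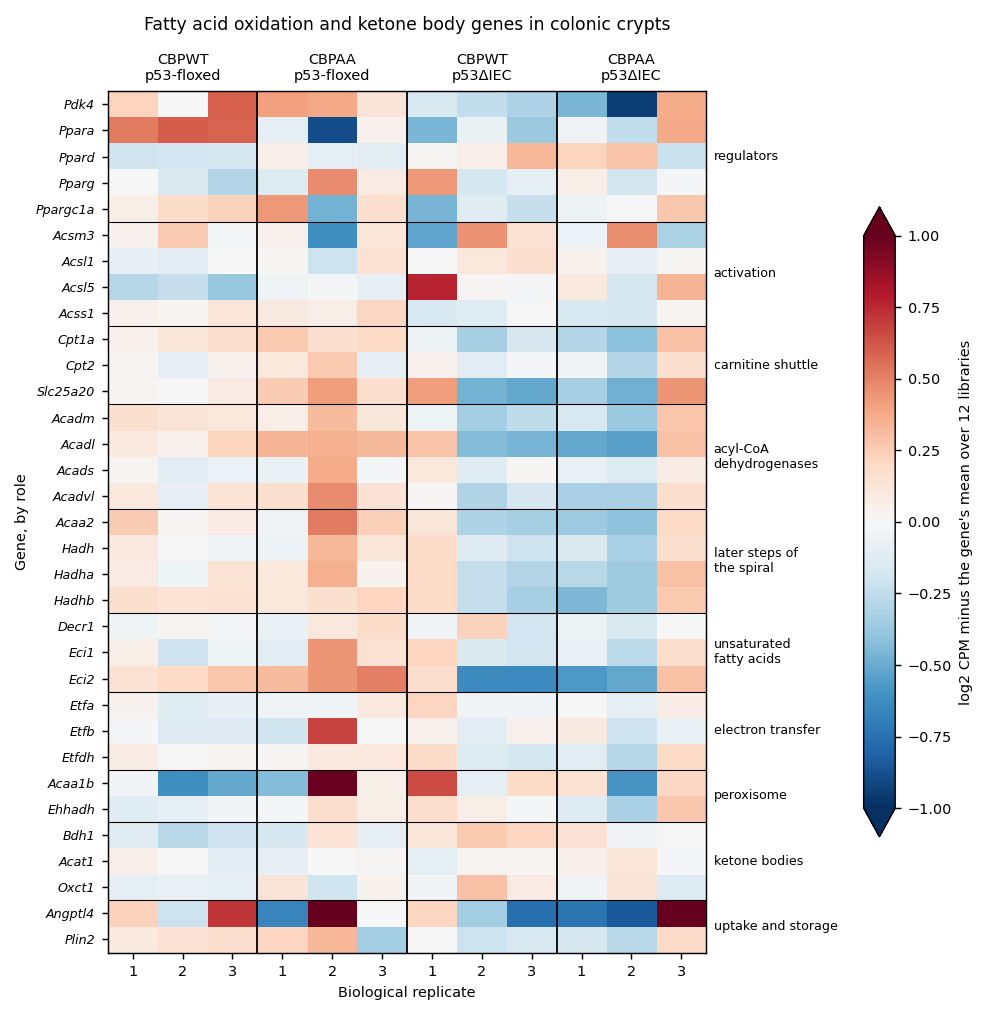
Level of the 33 genes that passed the filter (rows, grouped by role) in each of the 12 libraries (columns, 3 per group), as log2 CPM (counts scaled to library size), minus the gene's mean over all libraries; red is higher and blue lower, and values past 1 in size are drawn at the end of the scale. The block from *Cpt1a* to *Hadhb* is mostly blue in CBPWTp53ΔIEC replicates 2 and 3 and CBPAAp53ΔIEC replicates 1 and 2, and mostly red in CBPAAp53ΔIEC replicate 3.

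The first comparison asked what loss of p53 did in crypts with wild-type CBP. With CBPWTp53ΔIEC set against CBPWTp53-floxed, 1 of the 33 genes was called, *Ppara*, which fell, where a call is an adjusted p under 0.05 with a log2 fold change above 0.5 in size. Over all 14610 genes 3.15% were called, 0.856% as lower and 2.29% as higher. Without the fold cutoff *Ppara* (lower) and *Bdh1* (higher) passed, where 3.72% of all genes passed, 1.02% lower and 2.7% higher. At an unadjusted p under 0.05, 3 genes of the list were higher and 3 were lower, against 12.6% and 8.28% of all genes. The fitted change was above 0 in 14 and below 0 in 19 of the 33, where 48.8% of all genes were below 0, with a median log2 fold change of -0.06, against 0.01 over all genes. After scaling of the counts, the 3 libraries of one group lay wholly above those of the other for 5 genes and wholly below for 7, where 16.1% and 14.7% of all genes did so. By role, the 3 genes of the carnitine shuttle (-0.29 to -0.02) and the 4 later enzymes of the spiral (-0.28 to -0.06) had values below 0. So did both genes of uptake and storage (-0.60 and -0.26). The 3 ketone body genes (0.00 to 0.40) and both peroxisomal genes (0.16 and 0.67) had values above 0. Signs were mixed in the other roles, among them the 4 acyl-CoA dehydrogenases (-0.34 to 0.05) and the 4 activating enzymes (-0.16 to 0.60).

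*Ppara* encodes the receptor that drives fatty acid oxidation and ketogenesis in fasting liver. It lies on chr15:85734983-85802819 (GRCm38, plus strand), no other gene overlaps its exons and it shares no 50-base stretch with another transcript. Its level was 19.6, 21.3 and 21.9 TPM in the 3 CBPWTp53-floxed libraries, the highest of the series and the tightest group. In CBPAAp53-floxed libraries it was 13.4, 6.70 and 11.9 TPM. The CBPWTp53ΔIEC libraries held 8.17, 13.5 and 12.0 TPM and the CBPAAp53ΔIEC libraries 13.8, 11.9 and 17.8 TPM. No library of the other 3 groups reached the lowest CBPWTp53-floxed value, and those 3 groups overlapped one another. The log2 fold change was -0.88 (SE 0.22, adjusted p = 0.0470, edgeR) for p53 loss in CBPWT crypts. Between the 2 floxed groups it was -0.86 (SE 0.22, adjusted p = 0.618), close in size but not called. In CBPAA crypts the fitted change with p53 loss was 0.33 (SE 0.22, adjusted p = 0.534). The interaction, the difference of the 2 p53 effects, was 1.21 on the log2 scale (SE 0.31) and was not called over all genes (adjusted p = 0.482).

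The call of *Ppara* sat close to the threshold. Leaving out 1 library at a time, it was lost in 10 of 12 fits, at adjusted p between 0.0515 and 0.170, and kept without CBPAAp53-floxed replicate 2 or without CBPAAp53ΔIEC replicate 3. The lowest 2 values of *Ppara*, 6.70 and 8.17 TPM, were those of CBPAAp53-floxed replicate 2 and CBPWTp53ΔIEC replicate 1, both high in small intestine genes. The other library high in small intestine genes, CBPAAp53ΔIEC replicate 3, was at 17.8 TPM, the highest value outside CBPWTp53-floxed. Without the 3 libraries high in those genes, a fit chosen after the data were seen, the log2 fold change of *Ppara* was -0.82 (SE 0.12, adjusted p = 0.000125) with p53 loss in CBPWT crypts and -0.62 (SE 0.12, adjusted p = 0.0430) in CBPAAp53-floxed against CBPWTp53-floxed. The value in CBPAA crypts turned from 0.33 to -0.13 (SE 0.13, adjusted p = 0.561), and the interaction was 0.69 (SE 0.17, adjusted p = 0.259). Of the other receptors, *Ppard* averaged 65.6 TPM and *Pparg* 80.3 TPM over the 12 libraries. Their log2 fold changes with p53 loss in CBPWT crypts were 0.33 (SE 0.13, adjusted p = 0.180) for *Ppard* and 0.22 for *Pparg*, and neither was called in any comparison.

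The promoters of 5 members on which the results turn are shown, so that their sequence can be read beside the values. They are windows of 300 bases, 250 before and 50 after the RefSeq start site in build GRCm38.p6, written 5′ to 3′ on the strand of the gene, and capitals mark the nuclear receptor half-site AGGTCA or its reverse complement.
Ppara, chr15:85735526-85735825, plus strand: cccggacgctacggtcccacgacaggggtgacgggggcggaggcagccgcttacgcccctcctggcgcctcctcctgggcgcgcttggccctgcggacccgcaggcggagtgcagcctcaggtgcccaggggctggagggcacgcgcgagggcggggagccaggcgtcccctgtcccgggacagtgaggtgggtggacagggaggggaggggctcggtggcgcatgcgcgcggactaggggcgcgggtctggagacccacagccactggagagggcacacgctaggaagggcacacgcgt
Pdk4, chr6:5496229-5496528, minus strand: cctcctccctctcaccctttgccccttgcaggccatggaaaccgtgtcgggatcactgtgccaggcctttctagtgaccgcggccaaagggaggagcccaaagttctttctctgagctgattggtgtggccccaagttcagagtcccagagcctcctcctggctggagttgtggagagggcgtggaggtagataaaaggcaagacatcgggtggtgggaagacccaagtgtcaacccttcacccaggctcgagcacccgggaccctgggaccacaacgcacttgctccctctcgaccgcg
Eci2, chr13:34994095-34994394, minus strand: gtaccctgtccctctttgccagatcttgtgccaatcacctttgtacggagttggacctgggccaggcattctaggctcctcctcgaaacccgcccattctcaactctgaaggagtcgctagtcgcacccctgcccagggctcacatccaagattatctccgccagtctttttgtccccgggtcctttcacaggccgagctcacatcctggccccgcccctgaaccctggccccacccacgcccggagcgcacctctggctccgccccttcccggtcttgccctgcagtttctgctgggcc
Cpt1a, chr19:3323051-3323350, plus strand: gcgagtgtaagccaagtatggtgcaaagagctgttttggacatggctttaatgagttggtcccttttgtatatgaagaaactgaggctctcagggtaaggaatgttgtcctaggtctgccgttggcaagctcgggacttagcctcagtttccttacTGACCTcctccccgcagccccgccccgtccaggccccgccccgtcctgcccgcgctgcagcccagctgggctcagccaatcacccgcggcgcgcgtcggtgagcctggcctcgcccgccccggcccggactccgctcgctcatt
Acadvl, chr11:70015379-70015678, minus strand: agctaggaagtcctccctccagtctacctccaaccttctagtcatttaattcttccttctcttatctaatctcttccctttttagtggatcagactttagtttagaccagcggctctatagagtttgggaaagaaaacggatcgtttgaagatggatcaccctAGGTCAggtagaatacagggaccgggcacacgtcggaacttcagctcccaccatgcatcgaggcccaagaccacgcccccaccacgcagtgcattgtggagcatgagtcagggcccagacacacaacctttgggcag
Of the 34 genes, 30 had such a window, and *Acaa2*, *Acat1*, *Angptl4* and *Decr1* had none. AGGTCA was found on either strand in the windows of 6 of the 30 (*Acadm*, *Acadvl*, *Cd36*, *Cpt1a*, *Plin2* and *Pparg*), against 18.1% of 27025 genes. The direct repeat of this half-site with 1 base between the copies, the form PPAR and RXR pairs bind, was in none of them and in 13 of 32851 windows. The GC box GGGCGG was in 21 of the 30, against 38.2% of genes, TATAAA in 1 (15.7%) and the E-box CACGTG in 1, *Plin2* (8.09%). A match is a string of letters in this window and says nothing of binding.

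*Bdh1*, the enzyme that interconverts the ketone bodies acetoacetate and hydroxybutyrate, moved the other way. It stood at 96.1, 88.0 and 96.5 TPM in CBPWTp53-floxed, at 98.3, 107 and 83.7 TPM in CBPAAp53-floxed, at 95.3, 129.98 and 139 TPM in CBPWTp53ΔIEC and at 122, 108 and 105 TPM in CBPAAp53ΔIEC libraries. On the TPM scale CBPWTp53ΔIEC replicate 1 lay inside the range of the CBPWTp53-floxed libraries, whereas after scaling of the counts all 3 CBPWTp53ΔIEC libraries lay above that range. The log2 fold change in CBPWT crypts was 0.40 (SE 0.10, adjusted p = 0.0487), past the p threshold but below the fold cutoff, and in CBPAA crypts it was 0.07 (SE 0.10). The interaction was -0.32 (SE 0.14, adjusted p = 0.482). *Bdh1* overlaps the antisense gene *Gm15743* in exons, and whether reads were counted by strand was not stated. In all, 12 genes of the list overlap another gene in exons. Among them are *Eci2* (*Gm16984*), *Acadvl* (*Dvl2*), *Acsl5* (*Zdhhc6*) and *Acss1* (*E130215H24Rik*), each overlapped by a gene on the opposite strand. The other ketone body genes were *Acat1*, which condenses and splits acetoacetyl-CoA, and *Oxct1*, which activates acetoacetate for use as fuel. The log2 fold change with p53 loss in CBPWT crypts was 0.00 (SE 0.09) for *Acat1* and 0.21 (SE 0.12, adjusted p = 0.313) for *Oxct1*.

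*Acsl5*, a long-chain acyl-CoA synthetase known from the intestinal epithelium, had the largest fitted value of the activating enzymes. Its level was 35.7, 37.9 and 35.5 TPM in CBPWTp53-floxed, 44.3, 40.4 and 35.2 TPM in CBPAAp53-floxed, 62.1, 45.6 and 49.7 TPM in CBPWTp53ΔIEC and 49.0, 40.6 and 55.4 TPM in CBPAAp53ΔIEC libraries. All 3 CBPWTp53ΔIEC libraries lay above all 3 CBPWTp53-floxed ones, with replicate 1, rich in small intestine genes, the highest of the 12. The log2 fold change of 0.60 (SE 0.19, adjusted p = 0.0897) was not called by edgeR and was called by DESeq2 (adjusted p = 0.0393), and it was 0.28 (SE 0.09) without the 3 libraries. *Acss1*, which activates acetate in mitochondria, was at 99.3, 100.1 and 111 TPM in CBPWTp53-floxed, at 108, 93.7 and 94.7 TPM in CBPAAp53-floxed, at 72.3, 91.6 and 110.2 TPM in CBPWTp53ΔIEC and at 90.8, 90.3 and 98.6 TPM in CBPAAp53ΔIEC libraries, where the CBPAAp53ΔIEC libraries lay below the CBPWTp53-floxed ones and the other pairs of groups overlapped on this scale. After scaling of the counts, the ΔIEC libraries lay below the floxed ones within each CBP genotype. Averaged over both CBP genotypes its change with p53 loss was -0.19 (SE 0.07, adjusted p = 0.123). *Acsm3*, a medium-chain synthetase, was lowest in the 3 libraries rich in small intestine genes, at 43.5, 45.5 and 60.5 TPM, against 69.6 to 108.6 TPM in the other 9.

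**Figure D2:**
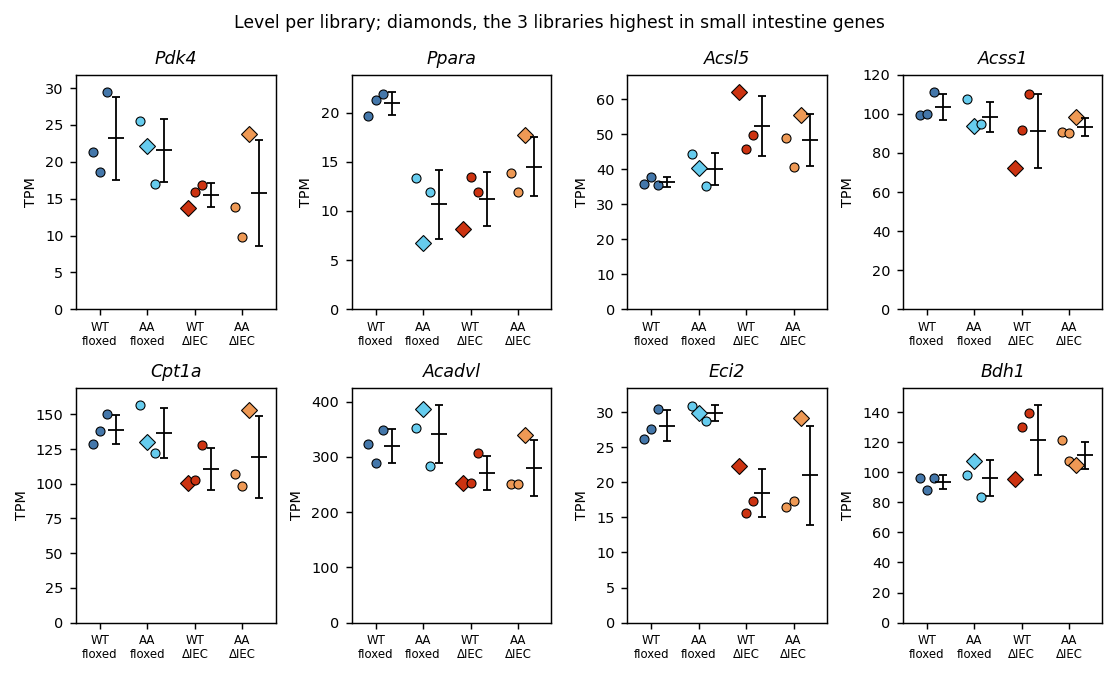
TPM of 8 genes in each library; circles and diamonds are libraries, diamonds being the 3 highest in small intestine genes, and the bar beside them is the mean with its SD (3 libraries per group; WT and AA are the CBP genotypes, floxed and ΔIEC the p53 states). *Ppara* is highest in the 3 CBPWTp53-floxed libraries (19.6 to 21.9 TPM), and *Eci2* in CBPAAp53ΔIEC replicate 3 (29.2 TPM) sits with the floxed libraries.

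The next comparison set CBPAAp53ΔIEC against CBPAAp53-floxed. None of the 33 genes was called by edgeR, where 0.0274% of all genes were called, nor by DESeq2, which called 0.269% of all genes. At an unadjusted p under 0.05, 5 genes were lower (*Acadvl*, *Eci2*, *Acadl*, *Acss1* and *Acaa2*) and none was higher, against 5.41% of all genes lower and 7.19% higher. After scaling of the counts, the libraries of the 2 groups did not overlap for 3 genes, all lower (*Eci2*, *Acadl* and *Acss1*), where this held for 15% of all genes, 7.18% lower and 7.86% higher. The fitted change was below 0 in 25 of the 33, where 47.8% of all genes were below 0, and the median was -0.17, against 0.01 over all genes. Within the list, all 4 acyl-CoA dehydrogenases (-0.54 to -0.15), all 4 later enzymes of the spiral (-0.42 to -0.23), all 3 genes of the carnitine shuttle (-0.35 to -0.14) and all 3 genes for unsaturated fatty acids (-0.63 to -0.14) had values below 0. Both peroxisomal genes (-0.38 and -0.11) were below 0 here, unlike with CBPWT. The 4 activating enzymes ran from -0.21 to 0.18, the 3 ketone body genes from -0.01 to 0.07 and the 5 regulators from -0.56 to 0.33.

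The counts in this comparison turned on 1 library. CBPAAp53ΔIEC replicate 3 was the highest of the 6 ΔIEC libraries for 18 of the 33 genes, against 17.9% of all genes tested, and CBPAAp53ΔIEC replicate 2 was the lowest for 23 of them, against 14.7%. *Eci2*, an enoyl-CoA isomerase needed for fatty acids with double bonds, is an example. It was at 26.2, 27.6 and 30.5 TPM in CBPWTp53-floxed and at 31.0, 30.0 and 28.7 TPM in CBPAAp53-floxed libraries. It was at 22.4, 15.7 and 17.4 TPM in CBPWTp53ΔIEC and at 16.6, 17.3 and 29.2 TPM in CBPAAp53ΔIEC libraries. On this scale 5 of the 6 ΔIEC libraries lay below all 6 floxed ones and CBPAAp53ΔIEC replicate 3 did not. After scaling of the counts, CBPWTp53ΔIEC replicate 1 did not either, at 58.4 CPM against 57.2 CPM in CBPWTp53-floxed replicate 1. The log2 fold change of *Eci2* in CBPAA crypts was -0.63 (SE 0.25, adjusted p = 0.359) with all 12 libraries and -0.98 (SE 0.21, adjusted p = 0.0372) without CBPAAp53ΔIEC replicate 3.

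*Pdk4*, a kinase that turns off pyruvate dehydrogenase and so favours fat as fuel, was at 21.4, 18.7 and 29.5 TPM in CBPWTp53-floxed and at 25.5, 22.2 and 17.01 TPM in CBPAAp53-floxed libraries. In the ΔIEC groups it was at 13.7, 15.9 and 16.8 TPM with CBPWT and at 13.8, 9.76 and 23.8 TPM with CBPAA, the last again being replicate 3. Its log2 fold change in CBPAA crypts was -0.56 (SE 0.27, adjusted p = 0.409), and -1.02 (SE 0.19, adjusted p = 0.0223) without replicate 3. *Cpt1a*, the rate-limiting carnitine palmitoyltransferase, was at 129, 138 and 150.0 TPM in CBPWTp53-floxed, at 157, 130.3 and 122 TPM in CBPAAp53-floxed, at 101, 103 and 128 TPM in CBPWTp53ΔIEC and at 107, 98.3 and 153 TPM in CBPAAp53ΔIEC libraries. Its log2 fold change was -0.31 (SE 0.16, adjusted p = 0.419) with all libraries and -0.56 (SE 0.12, adjusted p = 0.0322) without replicate 3. *Acadvl* was at 322, 289 and 349 TPM, at 352, 387 and 283 TPM, at 252, 253 and 307 TPM and at 251, 250.1 and 339 TPM in the same order of groups. Its change of -0.41 (SE 0.15, adjusted p = 0.342) became -0.60 (SE 0.14, adjusted p = 0.0456). Without replicate 3, 5 genes in all were called lower, these 4 and *Acadl*, and none higher, where 0.43% of all genes were called lower and 1.76% higher.

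The same library stood apart in other lists. Its proliferation list of 30 genes summed to 379.7 TPM, inside the floxed range of 317 to 457 TPM, where the other ΔIEC libraries lay at 542 TPM (CBPWTp53ΔIEC replicate 1) and between 969.5 and 1257 TPM. Its circadian clock list summed to 361 TPM, against 176 to 279 TPM in the other 5 ΔIEC and 319.6 to 419.6 TPM in the 6 floxed libraries, while its *Trp53* was at 6.13 TPM. Of the 30 proliferation genes, 24 were called higher with p53 loss in CBPWT crypts, beside 335 of all 14610 genes. Averaged over CBP genotypes 29 were called higher, beside 404 of all genes. None was called in CBPAA crypts, where 0 of all genes were called higher. There all 30 had fitted values above 0, with a median log2 fold change of 1.39, against 1.85 with CBPWT. At an unadjusted p under 0.05, 25 of the 30 were higher in CBPAA crypts, beside 1051 of all genes. The part of proliferation, clock and gut region in the levels of these genes was not tested, and in bulk crypts fewer cells of a type and less RNA per cell cannot be told apart.

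**Figure D3:**
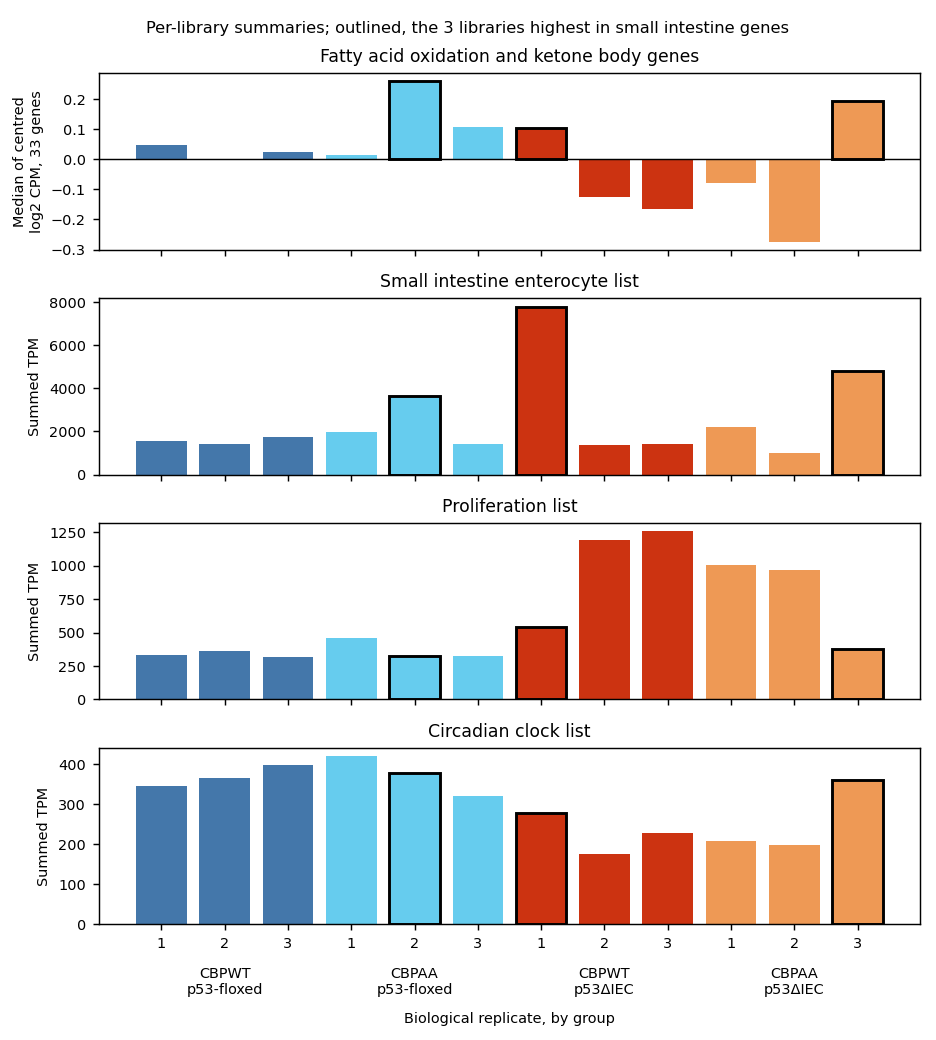
4 summaries of each library: the median over the 33 genes of log2 CPM minus each gene's mean, and the summed TPM of the small intestine enterocyte, proliferation and circadian clock lists. Outlined bars are the 3 libraries highest in small intestine genes; their medians of the 33 genes (0.26, 0.10 and 0.19) are above 0, and those of the other 4 ΔIEC libraries lie between -0.27 and -0.08.

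Averaged over both CBP genotypes, 9 genes were lower and 3 higher with p53 loss at an unadjusted p under 0.05, against 8.73% and 13.2% of all genes. None was called, where 3.5% of all genes were called, and DESeq2 called *Eci2* and *Pdk4*, both lower, where it called 0.663% of 27137 genes lower. The 9 lower genes were *Eci2*, *Pdk4*, *Acadvl*, *Acss1*, *Cpt1a*, *Acadm*, *Acaa2*, *Acadl* and *Hadhb*, with log2 fold changes from -0.58 to -0.19 and adjusted p from 0.0785 to 0.202. The 3 higher genes were *Bdh1*, *Acsl5* and *Ppard*, at 0.24 to 0.38.

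*Acadl*, the long-chain dehydrogenase, and *Slc25a20*, which trades acylcarnitines for carnitine across the inner mitochondrial membrane, were each lower in some ΔIEC libraries than in others. *Acadl* was at 159.9, 157 and 185 TPM in CBPWTp53-floxed and at 198, 179 and 160.3 TPM in CBPAAp53-floxed libraries. In the ΔIEC groups it was at 152, 114 and 124 TPM with CBPWT and at 109.7, 107 and 184 TPM with CBPAA. On the TPM scale the 4 ΔIEC libraries that are not among the 3 highest in small intestine genes lay below every floxed library. So did CBPWTp53ΔIEC replicate 1 at 152 TPM, while CBPAAp53ΔIEC replicate 3, at 184 TPM, lay inside the floxed range. After scaling of the counts, CBPWTp53ΔIEC replicate 1 was at 143.6 CPM, inside the range of the floxed libraries (121.9 to 151.4 CPM), and the 4 libraries were still below it. *Slc25a20* was at 85.4, 85.6 and 94.3 TPM in CBPWTp53-floxed and at 105, 104 and 80.6 TPM in CBPAAp53-floxed libraries. It was at 94.2, 62.6 and 67.5 TPM in CBPWTp53ΔIEC and at 70.0, 63.1 and 115 TPM in CBPAAp53ΔIEC libraries. The same 4 libraries again lay below all 6 floxed ones, and CBPWTp53ΔIEC replicate 1 and CBPAAp53ΔIEC replicate 3 did not.

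With the 3 libraries high in small intestine genes left out, 9 libraries remained, 2 in each group but CBPWTp53-floxed. This choice was made after the data were seen. The 2 ΔIEC libraries left out had medians of the 33 genes of 0.10 and 0.19, against -0.27 to -0.08 in those kept. Leaving them out by itself lowers the level of the ΔIEC groups. CBPAAp53-floxed replicate 2, also left out, had the highest median of the floxed libraries (0.26), which works the other way. In CBPWT crypts 6 genes were then called lower with p53 loss and none higher, where 4.6% of all genes were called lower and 6.96% higher. In CBPAA crypts 7 were called lower and none higher, where 3.56% were lower and 5.42% higher. Both sets of calls come from 1 fit with the same libraries left out, and the values of the genes called are given side by side. CBPAAp53ΔIEC replicate 1, which was kept, had the highest small intestine (2193 TPM) and Paneth cell (3144 TPM) sums of the 9. *Eci2* changed by -0.87 (SE 0.09, adjusted p = 3.63e-06) with CBPWT and by -0.98 (SE 0.10, adjusted p = 9.78e-06) with CBPAA. *Acadl* changed by -0.59 (SE 0.08) and by -0.88 (SE 0.09). *Slc25a20* changed by -0.55 (SE 0.08) and by -0.63 (SE 0.09), and *Pdk4* by -0.61 (SE 0.19) and by -0.99 (SE 0.21). *Ppara* and *Angptl4* made up the rest in CBPWT crypts, and *Acaa2*, *Hadhb* and *Cpt1a* in CBPAA crypts. In this fit *Bdh1* rose by 0.42 (SE 0.08, adjusted p = 0.00147) in CBPWT crypts, below the fold cutoff, and its value was 0.18 (SE 0.09, adjusted p = 0.189) in CBPAA crypts. The difference between the CBP genotypes in the p53 effect was called for none of the 33 genes in this fit. The 4 ΔIEC libraries that it keeps are also those with the highest proliferation sums. The library names hold a further number, whose meaning was not stated. It was higher in these 4 libraries than in every floxed library, and lower in the ΔIEC libraries left out. In this fit, p53 loss and whatever that number follows cannot be told apart.

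**Figure D4:**
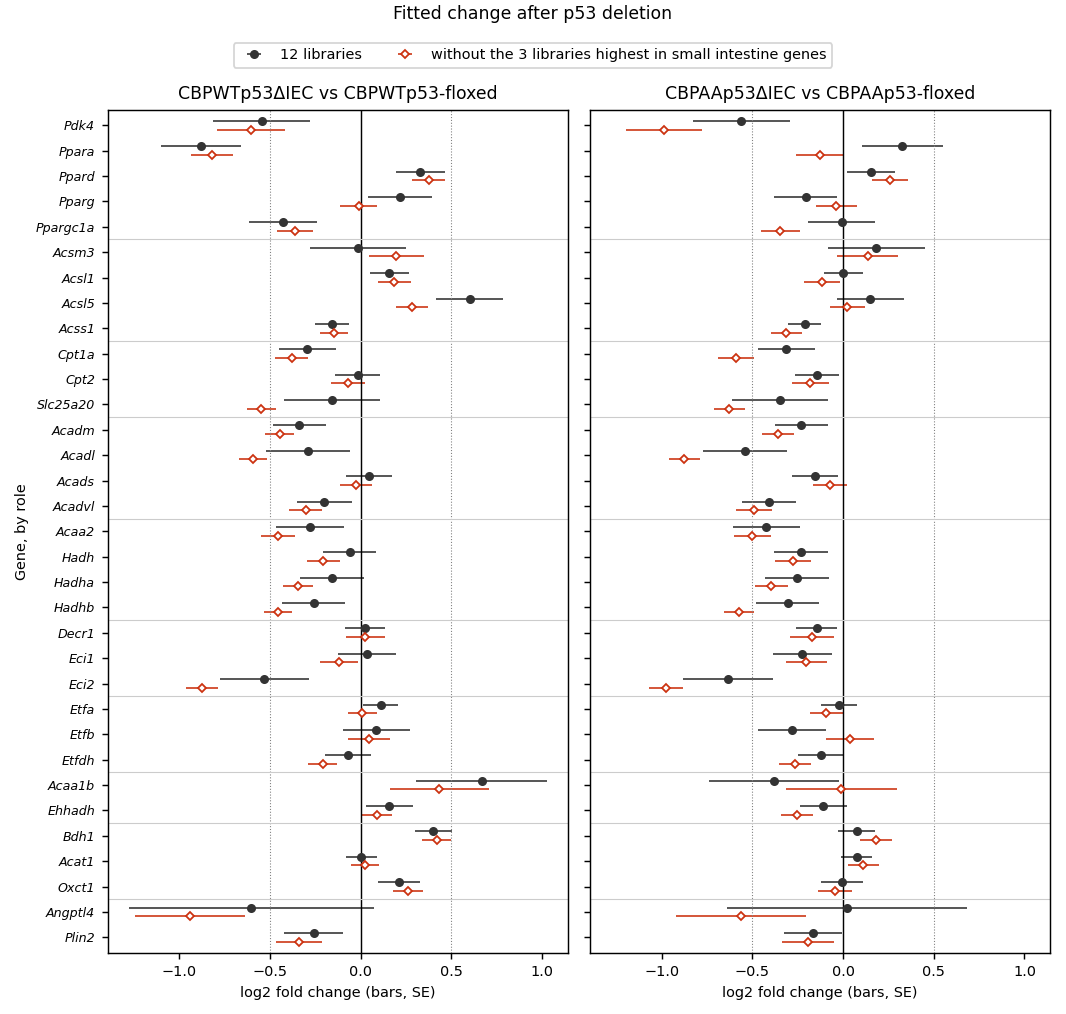
Fitted log2 fold change with its SE (bars) of the 33 genes, grouped by role, after p53 deletion with CBPWT (left) and CBPAA (right); black points use all 12 libraries and open red diamonds leave out the 3 libraries highest in small intestine genes, and dotted lines mark the fold cutoff of 0.5. Without those libraries *Eci2* lies at -0.87 and -0.98 and *Acadl* at -0.59 and -0.88, and the bars are shorter.

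The last comparisons asked what the CBP mutation did. Between the floxed groups none of the 33 genes was called, where 0% of all genes were called by edgeR and 0.125% by DESeq2, which called none of the 34 either. *Ppara* was the single gene with an unadjusted p under 0.05, lower, against 4.18% of all genes lower, 3.86% higher and 8.04% in all. The groups did not overlap for 7 genes higher and 1 lower, where 9.75% and 9.62% of all genes were so placed. The fitted change was above 0 in 28 of the 33 genes, where 48% of all genes were below 0, with a median of 0.11 against 0.01 over all genes. CBPAAp53-floxed replicate 2, the library rich in small intestine genes, was the highest of the 6 floxed libraries for 18 of the 33 genes, against 29.0% of all genes, and without the 3 libraries the median was 0.07 with 23 genes above 0. *Acaa1b* had the largest positive value, 0.72 (SE 0.36, adjusted p = 0.622), and stood at 20.0, 48.5 and 23.1 TPM in CBPAAp53-floxed against 25.5, 17.04 and 19.1 TPM in CBPWTp53-floxed libraries. Its 48.5 TPM was that of replicate 2, the groups overlapped, and 30.5% of its 50-base stretches are shared, all with its paralogue *Acaa1a*. Between the ΔIEC groups no gene had an unadjusted p under 0.05, where 3.57% of all genes did (1.76% lower and 1.81% higher), and the called share of all genes was 0.00684%. The values there ran from -0.32 (*Acaa1b*) to 0.63 (*Angptl4*, SE 0.68), 32 of the 33 lay within 0.5 of 0, and 21 of the 33 lay below 0, as did 52.3% of all genes. That direction turned on single libraries: 10 of the 33 lay below 0 without CBPWTp53ΔIEC replicate 1, 28 without CBPAAp53ΔIEC replicate 3 and 25 without the 3 libraries high in small intestine genes. The groups did not overlap for 1 gene, *Ppargc1a*, higher, where this held for 9.26% of all genes, 4.76% higher and 4.5% lower. *Angptl4* was at 2.15, 1.96 and 9.99 TPM in CBPAAp53ΔIEC libraries, so its value rested on replicate 3. The interaction of CBP genotype and p53 deletion was called for none of the 33, where 0.00684% of all genes were called, and was below 0 in 26 of them, where 52.5% of all genes were below 0, with a median of -0.14, against -0.02 over all genes. It was below 0 in 18 genes without CBPWTp53ΔIEC replicate 1, in 29 without CBPAAp53ΔIEC replicate 3 and in 27 without the 3 libraries. At an unadjusted p under 0.05, *Ppara* was above and *Bdh1* below 0 in that test, where 5% of all genes were above and 5.28% below. Averaged over both p53 states, the CBP genotype gave no call by edgeR or DESeq2 and no gene of the 33 at an unadjusted p under 0.05, where 2.57% of all genes passed that level and 0.00684% were called, with a median of 0.04 against 0.00 over all genes. That median was -0.02, with 22 of the 33 genes below 0, without CBPAAp53ΔIEC replicate 3, and -0.01, with 20 below 0, without the 3 libraries.

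Among regulators, *Ppargc1a*, a coactivator of the PPARs, was at 22.4, 10.5 and 15.1 TPM in CBPAAp53-floxed and at 9.54, 15.02 and 15.4 TPM in CBPWTp53ΔIEC libraries. Both lowest values belong to libraries rich in small intestine genes, while the other such library, CBPAAp53ΔIEC replicate 3, was the highest of its group. *Ppargc1a* was at 16.4 to 19.7 TPM in CBPWTp53-floxed and at 16.0 to 19.1 TPM in CBPAAp53ΔIEC libraries. Its largest fitted change was -0.43 (SE 0.19, adjusted p = 0.210) for p53 loss with CBPWT. *Plin2*, which coats lipid droplets, was at 39.6 to 72.0 TPM with no change called. *Ehhadh*, the bifunctional enzyme of peroxisomes, was at 67.1 to 97.2 TPM with fitted changes between -0.11 and 0.16 in the 4 comparisons of pairs of groups. The electron transfer flavoproteins *Etfa*, *Etfb* and *Etfdh* had fitted changes of -0.07 to 0.11 with p53 loss in CBPWT crypts. For *Etfb*, 44.8% of 50-base stretches are shared, nearly all with the overlapping gene *Gm45233*, so reads could be split between them. For *Hadhb*, 19.7% are shared, mostly with *Gm13910*.

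Other genes of the same pathways were read from a second list of 115, of which 91 were tested. With p53 loss in CBPWT crypts, 2 of the 91 were called higher and 1 lower, beside 2.29% and 0.856% of all genes, and averaged over CBP genotypes 2 were higher and none lower, beside 2.77% and 0.732%. *Fabp5*, a fatty acid carrier, rose by 1.23 (SE 0.31, adjusted p = 0.0463), from 2.096 ± 0.293 to 4.79 ± 0.989 TPM (SD, n = 3). *Dbi*, the acyl-CoA binding protein, rose by 0.52 (SE 0.13, adjusted p = 0.0463), from 149 ± 13.2 to 209 ± 23.5 TPM. *Acad12*, an acyl-CoA dehydrogenase, fell by 0.57 (SE 0.12, adjusted p = 0.0340), from 9.19 ± 0.323 to 6.10 ± 1.23 TPM. *Acat2*, the cytosolic thiolase, rose by 0.86 (SE 0.19, adjusted p = 0.0293) averaged over CBP genotypes, with 17.4 to 23.1 TPM in the floxed libraries and 19.5 to 51.3 TPM in the ΔIEC libraries.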

How the data were processed

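Bulk RNA sequencing libraries of colonic crypts, 3 biological replicates in each of 4 groups, were used as deposited, and groups were taken from the sample labels. Gene counts and TPM values are the authors' own: the authors deposited, per gene and library, raw read counts and TPM. The submitters' processing notes name fastp 0.20.0, FastQC 0.11.9, HISAT2 2.1.0, SAMtools 1.9, Subread 2.0.1 with featureCounts, and build GRCm38. Libraries were made with a stranded mRNA kit, and whether counting used strand was not given in the sources used here. The deposited tables also hold the authors' own fold changes and p-values, which were not used.

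The 4 groups were fitted together over 12 libraries by the robust quasi-likelihood method of edgeR 4.0.16 (R 4.3.3) after TMM scaling, low counts having been removed by filterByExpr at its minimum of 10, and tests were two-sided with Benjamini-Hochberg adjustment over all 14610 genes tested. A call needed both an adjusted p below 0.05 and a fitted change beyond 0.5 on the log2 scale in either direction. All p-values and SEs not credited to another tool are from this fit. Centred levels are log2 CPM with a prior count of 0.5. Means ± SD are of TPM. Alternatives were DESeq2 1.42.0, its size factors in edgeR, other filters, a block on the replicate number, and leaving out each library. The fits were tested on simulated data. Each library held 11177430 to 18029125 counts, and replicates correlated at 0.960 to 0.994 over genes. Counts carry no molecular identifiers.

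The genes, the marker lists and the other pathway genes were chosen with earlier results of these data known. Members called, the others with the smallest p up to 8 in all, and other pathway genes called in any comparison were named with their values. Exon overlaps and shared 50-base stretches came from GENCODE M21 on GRCm38, and promoter windows of 300 bases from RefSeq (GRCm38.p6).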

Additional observations from a re-analysis of the deposited data

How the results depend on the processing

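Of 414 values recomputed under 20 alternatives, 374 met the rule set for their kind. Fold changes of named genes had to keep their direction and their side of the threshold. Counts of called genes had to stay equal or within a set ratio, so a 0 that stayed 0 passed. Medians had to move by less than 0.151, the SD of the library medians within groups. A median smaller than that could change sign and pass, so the tally is not a measure of stability. For p53 loss with CBPWT, 1 of the 33 genes was called. That count was 2 without the fold cutoff, 2 with DESeq2, 0 with a replicate block and 6 without the 3 libraries highest in small intestine genes, an alternative chosen after the data were seen. Leaving out 1 library at a time gave 0 to 1 called genes (*Eci2* in place of *Ppara* without CBPWTp53ΔIEC replicate 1). For p53 loss with CBPAA, the count went from 0 to between 0 and 5 when 1 library was left out, 5 being without CBPAAp53ΔIEC replicate 3, and to 7 without the 3 libraries. Averaged over CBP genotypes it went from 0 to 2 with DESeq2, to 6 without the 3 libraries, and to between 0 and 3 when 1 library was left out (2 without CBPWTp53ΔIEC replicate 1, 3 without CBPAAp53ΔIEC replicate 3). Between the floxed groups it went from 0 to 1 without the 3 libraries. The cause of these moves was not tested. The median of the interaction over the 33 genes moved from -0.14 to -0.30 without CBPAAp53ΔIEC replicate 3, -0.04 without CBPWTp53ΔIEC replicate 1, -0.05 without CBPAAp53-floxed replicate 2 or without CBPAAp53ΔIEC replicate 2, and -0.10 without the 3 libraries. Medians near 0 changed sign. That of the CBP genotype averaged over p53 states went from 0.04 to -0.02 without CBPAAp53ΔIEC replicate 3 and to -0.01 without the 3 libraries. That between the ΔIEC groups went from -0.02 to 0.09 without CBPWTp53ΔIEC replicate 1, and to 0.03 and 0.06 without CBPAAp53ΔIEC replicate 1 and replicate 2. Replicate numbers did not pair the libraries: over 18 same-numbered pairs the correlation of deviations ran from -0.55 to 0.58 and was above 0.1 in 3. With the replicate block *Ppara* changed by -0.87 (adjusted p = 0.0764), so its call was lost. With 3 libraries a group, a p-value of the main fit weighs a difference against the spread within groups, estimated over all 12 libraries.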
